A study of Mus musculus with 9 samples.

Results

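Genes of the lysosome were followed in b.End3 cells after photodynamic therapy (PDT). The genes were taken by name: 45 genes of lysosomal hydrolases and lysosomal membrane proteins with the regulator Tfeb, and 25 further ones. The latter are all genes whose name starts with Atp6v: subunits of the vacuolar ATPase (V-ATPase), pseudogenes and other genes that share the name. Together, both sets were 70 of the 54532 genes in the expression table, and all 45 listed names were found. The cell line b.End3 was labelled as mouse brain microvessel endothelial cells of strain C57BL/6, although the growth protocol called the cells rat. RNA sequencing covered 3 libraries of untreated cells (Ctrl, 0 J/cm2), 3 of cells at a light dose of 10 J/cm2 (Ep1) and 3 of cells at 20 J/cm2 (Ep2). Both treated groups received the photosensitizer porfimer sodium at 300 µg/mL for 90 min and a 635 nm laser at 100 mW/cm2. No library of cells with porfimer sodium alone or with light alone was used here, so the effects of drug, light and their combination cannot be told apart, and the time from irradiation to lysis is not given in the sources used here.

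Lysosomes degrade material from endocytosis, phagocytosis and autophagy. Their soluble hydrolases (cathepsins, glycosidases, sulfatases and lipases) are made in the endoplasmic reticulum, tagged with mannose 6-phosphate and work at acid pH, which the V-ATPase maintains by pumping protons across the lysosomal membrane. Membrane glycoproteins such as LAMP-1 and LAMP-2 line that membrane, and transporters and channels carry the products out. Many of these genes share a short promoter sequence, the CLEAR element with the core CACGTG, which is bound by the MiT/TFE transcription factors TFEB, TFE3 and MITF. These factors are held in the cytosol when mTORC1 is active at the lysosome and enter the nucleus when the organelle is starved or damaged.

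Expression was measured in FPKM, fragments normalized by gene length and library size, which allows levels to be compared between genes. Each library rested on 16240688 to 19509225 fragments counted on genes. A gene was tested if its FPKM was at least 1 in at least 3 libraries, which 11727 genes were, among them 56 of the 70 members (41 of the 45 listed genes and 15 of the 25 Atp6v genes). A log2 fold change below is a difference of mean log2(FPKM + 1) from one limma fit over all 9 libraries, and it understates the change of genes with low FPKM. A gene was called higher or lower at an adjusted p (p-adj, limma) below 0.05, and a differentially expressed gene (DEG) also had an absolute log2 fold change above 0.6. Nothing in the labels says that the 3 libraries of a group came from separate cultures, so p-values measure the spread between these libraries. Of 14 endothelial marker genes, 10 were below 1 FPKM in all libraries and 3 of them were at 0, while the keratins Krt8 and Krt18, of simple epithelia, reached 562 to 714 and 230.5 to 332 FPKM, so the cells are named here by their label. The summed FPKM of the endothelial markers was 11.4 to 11.9 in Ctrl, 11.3 to 13.1 in Ep1 and 14.4 to 15.4 in Ep2. Most of this sum came from Flt1, whose mean was 6.90 in Ctrl and 10.9 in Ep2. The means of the next most abundant markers were lower in Ep2, from 2.09 to 1.65 for Egfl7, 1.32 to 1.13 for Eng and 0.857 to 0.753 for Cdh5. The remaining markers, some of them higher in Ep2, were at most 0.242 FPKM. Pecam1, the endothelial adhesion molecule, was between 0.0821 and 0.242 FPKM.

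At the higher light dose, most tested members rose. The members were chosen with earlier results of these data known, so their counts are descriptions. Between Ep2 and Ctrl, 38 of 56 members were higher, where 23.9% of all tested genes were, and 5 were lower, where 29.3% of all tested genes were. The median log2 fold change was 0.27 over the members and -0.029 over all tested genes. DEGs were 10 members that rose, against 3.3% of all tested genes, and 1 that fell, against 5.87%. By role, the called members were 11 of 15 V-ATPase genes, all higher, 8 of 8 genes of lipid degradation, all higher, 7 of 9 proteases higher and 1 lower, 6 of 14 glycosidases and sulfatases higher and 3 lower, and 5 of 8 membrane proteins, all higher. With each library centred on its median, 42 members were higher and 2 lower, and over all tested genes 3311 were higher and 2971 lower, in place of 2800 and 3436. The 5 members that were lower also became 2 without Ctrl 2 and 3 without Ctrl 1, Ep1 1, Ep1 2, Ep1 3 or Ep2 2. Of all tested genes, 25.6% were lower without Ctrl 2, and 26.0% to 28.9% without 1 of those other libraries.

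Epithelial marker genes moved with the members in Ep2. Of 10 such genes, 5 were below 1 FPKM in all libraries and 2 of them were at 0. Their summed FPKM was 1029.99 to 1082 in Ctrl, 938 to 1043 in Ep1 and 1157 to 1374 in Ep2, where all libraries were above the other groups. The ratio of the Ep2 mean to the Ctrl mean was 2.18 for Epcam, 1.65 for Grhl2, 1.63 for Krt19, 1.30 for Krt18 and 1.03 for Krt8. Their part in the result was not tested. In whole cultures of this kind, more RNA per cell and a larger share of cells that express a gene cannot be told apart.

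At the lower light dose, few members were called. Between Ep1 and Ctrl, 1 member was higher (Ctsc), where 6.32% of all tested genes were, and 2 were lower (Lgmn and Tfeb), where 4.97% were. With 1 library left out, the lowest shares of all tested genes were 0.986% higher and 0.66% lower, without Ctrl 2. The members that were lower became 0 without Ctrl 1, Ctrl 2 or any Ep1 library, where 0.66% to 3.28% of all tested genes were lower. They became 4 without Ctrl 3 (3.95% of all tested genes) or Ep2 3 (6.39%), and 6 without Ep2 1 (8.69%). Ctsc was not called without Ctrl 1, Ctrl 2, Ep1 1 or Ep1 3. No member was a DEG at this dose, where 0.571% of all tested genes were DEGs that rose and 0.222% DEGs that fell. The median log2 fold change of the members was -0.038, beside -0.0093 over all tested genes.

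The direct comparison of the light doses gave counts close to those of Ep2 with Ctrl. Between Ep2 and Ep1, 38 of 56 members were higher, against 18.8% of all tested genes, and 2 were lower (Gusb and Tfeb), against 25.2%. Of these, 6 were DEGs that rose (1.94% of all tested genes) and 1 was a DEG that fell (3.97%). The median was 0.29 over the members and -0.015 over all tested genes. Both comparisons share the Ep2 libraries. With each library centred on its median, 45 members were higher and 2 lower, and over all tested genes 2974 were higher and 2383 lower, in place of 2206 and 2950.

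**Figure D1:**
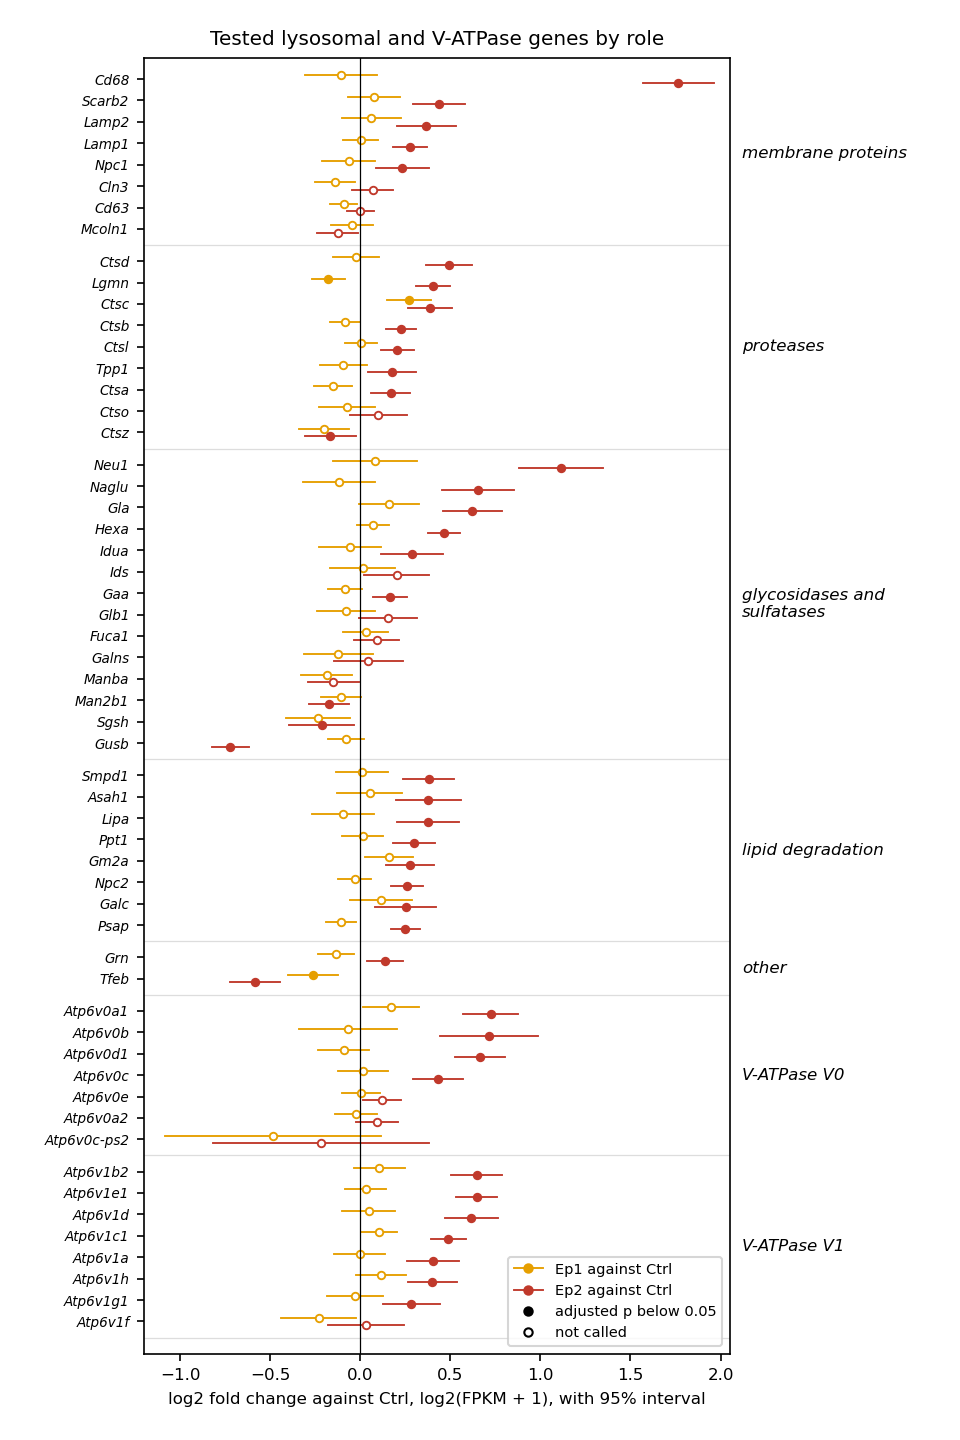
Log2 fold change of each of the 56 tested members against Ctrl (horizontal axis, difference of mean log2(FPKM + 1), with 95% interval), by role, for Ep1 (orange) and Ep2 (red). Filled points have an adjusted p below 0.05. In Ep2, 38 points are filled to the right of 0 and 5 to the left, and in Ep1 only Ctsc, Lgmn and Tfeb are filled.

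**Figure D2:**
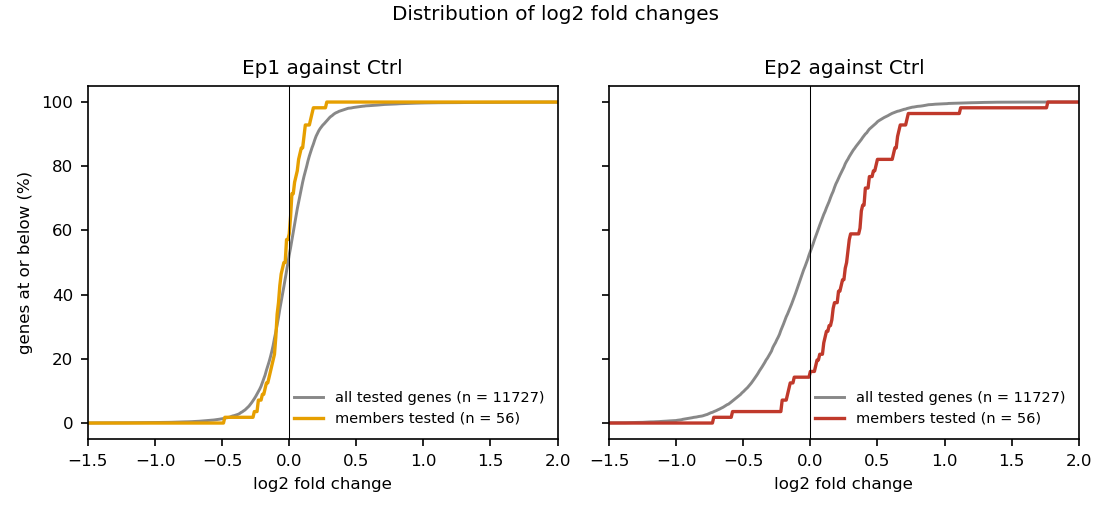
Share of genes (vertical axis, percent) whose log2 fold change lies at or below each value, for the 56 tested members (coloured) and all 11727 tested genes (grey), in Ep1 and Ep2 against Ctrl. In Ep2 the curve of the members lies to the right of that of all tested genes, with medians of 0.27 and -0.029, and in Ep1 the medians are -0.038 and -0.0093.

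The promoters of several members carry the core of the CLEAR element, and they are shown here because members with and without it rose. RefSeq promoter windows (GRCm38.p6, 250 bases before to 50 bases after an annotated start) were found for 57 of the 70 members. CACGTG, which reads the same on both strands, was present in the windows of 17 of these 57 (29.8%), of 12.2% of 8342 tested genes and of 8.09% of all 27025 genes of the table. The longer TCACGTGA, which contains CACGTG and also reads the same on both strands, was present in 8 members (14.0%), 2.41% of tested genes and 1.12% of all genes. Among members with a window, CACGTG occurred in 11 of 31 that were higher in Ep2 (35.5%), in 4 of 10 that were tested and not called (40.0%), and in 1 of 5 that were lower (20.0%). A match describes the letters in this window only and is not a measurement of binding. Of the DEGs that rose, Atp6v0d1, Atp6v0b, Gla and Naglu hold a match. Atp6v1b2, another of them, had no window, so whether it holds a match is not known. Of the 15 tested V-ATPase genes, only 9 had a window. The stretches around the matches follow, 5′ to 3′ along the gene, with CACGTG in capitals and up to 30 bases on each side.
Atp6v0d1, chr8:105566032-105566097, minus strand: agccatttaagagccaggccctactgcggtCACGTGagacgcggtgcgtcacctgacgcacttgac
Atp6v0b, chr4:117887312-117887395, minus strand: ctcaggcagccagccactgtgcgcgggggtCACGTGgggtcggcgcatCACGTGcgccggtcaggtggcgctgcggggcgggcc
Gla, chrX:134601164-134601255, minus strand: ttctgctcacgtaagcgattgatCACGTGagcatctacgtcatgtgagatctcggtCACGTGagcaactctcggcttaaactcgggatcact
Naglu, chr11:101069991-101070056, plus strand: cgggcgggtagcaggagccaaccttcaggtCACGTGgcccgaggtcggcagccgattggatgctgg
Mcoln1 and Cln3 also hold matches, yet neither was called in Ep2, and Ctsa, which rose by a log2 fold change of only 0.17, holds a pair of matches around its second annotated start.
Mcoln1, chr8:3500418-3500509, plus strand: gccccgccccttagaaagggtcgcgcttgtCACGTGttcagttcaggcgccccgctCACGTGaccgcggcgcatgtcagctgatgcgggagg
Cln3, chr7:126583322-126583415, minus strand: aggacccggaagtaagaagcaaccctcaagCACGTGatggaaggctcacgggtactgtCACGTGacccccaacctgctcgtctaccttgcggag
Ctsa, chr2:164833731-164833813, plus strand: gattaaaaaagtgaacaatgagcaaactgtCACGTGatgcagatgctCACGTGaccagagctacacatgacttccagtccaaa
The windows of Cd68 and Neu1, the members with the largest log2 fold changes, hold no CACGTG, and their 300 bases are given whole.
Cd68, chr11:69666121-69666420, minus strand: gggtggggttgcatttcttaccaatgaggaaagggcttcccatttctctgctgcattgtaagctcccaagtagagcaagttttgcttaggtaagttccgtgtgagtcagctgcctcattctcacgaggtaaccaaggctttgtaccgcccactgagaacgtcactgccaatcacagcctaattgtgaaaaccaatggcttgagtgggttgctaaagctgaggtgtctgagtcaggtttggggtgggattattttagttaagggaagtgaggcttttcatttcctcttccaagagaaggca
Neu1, chr17:34931003-34931302, plus strand: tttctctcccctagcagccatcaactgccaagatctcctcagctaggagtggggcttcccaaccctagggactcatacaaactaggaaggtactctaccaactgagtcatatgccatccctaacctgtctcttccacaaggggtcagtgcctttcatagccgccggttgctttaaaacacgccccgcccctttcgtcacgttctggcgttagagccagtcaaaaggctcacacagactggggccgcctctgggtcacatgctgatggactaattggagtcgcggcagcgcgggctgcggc

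Among the membrane proteins, Cd68 rose most. Cd68 (ENSMUSG00000018774, chr11:69664213-69666153, minus strand) encodes a mucin-like glycoprotein of late endosomes and lysosomes that is widely used as a macrophage marker. Its FPKM was 23.1, 23.4 and 24.9 in Ctrl, 25.2, 21.1 and 20.1 in Ep1, and 91.9, 76.6 and 82.4 in Ep2. The Ep2 libraries lay far above the other 6, and Ctrl and Ep1 overlapped. The ratio of the Ep2 mean to the Ctrl mean was 3.51, and the log2 fold change of 1.77 ± 0.088 (SE, p-adj = 2.17e-06) was the largest of all 11727 tested genes in this comparison. Against Ep1 it was 1.87 ± 0.088 (SE, p-adj = 4.12e-06), while Ep1 against Ctrl gave -0.11 (p-adj = 0.454). No other tested gene overlaps the span of Cd68. The summed FPKM of the macrophage markers was 11.1 to 12.0 in Ctrl, 10.3 to 10.5 in Ep1 and 10.4 to 11.3 in Ep2. Of these 16 markers, 15 were below 1 FPKM in all libraries, Itgam, Tyrobp and the complement genes C1qa, C1qb and C1qc were at 0, and nearly all of the sum came from Cd14, at 9.69 to 11.5 FPKM.

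The structural glycoproteins of the lysosomal membrane rose by smaller steps. Lamp1 was the most abundant member of this role, with FPKM of 161, 167 and 152 in Ctrl, 160.4, 162 and 158 in Ep1, and 200.5, 190.2 and 191 in Ep2. All 3 Ep2 libraries exceeded all others, and the log2 fold change was 0.28 ± 0.043 (SE, p-adj = 0.00052). Lamp2, which also takes part in chaperone-mediated autophagy, rose from a mean of 23.3 to 30.4 FPKM (0.37 (p-adj = 0.00229) on the log2 scale). Scarb2 (LIMP-2), the receptor that carries β-glucocerebrosidase to the lysosome, rose by 0.44 (p-adj = 0.00039), from 3.18 to 3.64 FPKM in Ctrl to 4.60 to 5.27 in Ep2.

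Npc1, the cholesterol transporter of the limiting membrane, rose by 0.23 (p-adj = 0.0129), a call that was lost with a correction for gene length and GC content (p-adj = 0.0686). The tetraspanin gene Cd63 was listed at 121 to 126 FPKM in Ep2 and 122 to 126 in Ctrl, a log2 fold change of -7.4e-05 with a 95% interval of -0.076 to 0.076. With the same correction it gave 0.16 (p-adj = 0.00241). Mcoln1, the calcium channel of the lysosome, was not called, with an interval of -0.24 to -0.0099 around -0.13. Cln3, a lysosomal membrane protein lost in juvenile Batten disease, had FPKM of 7.45, 7.73 and 7.15 in Ctrl, 6.38, 6.96 and 6.64 in Ep1, and 8.11, 7.62 and 7.84 in Ep2. Its Ep1 libraries were below all Ctrl libraries, but neither Ep1 (-0.14 (p-adj = 0.102)) nor Ep2 (0.069 (p-adj = 0.274)) was called against Ctrl, and Ep2 was higher than Ep1 (0.21 (p-adj = 0.00822)).

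**Figure D3:**
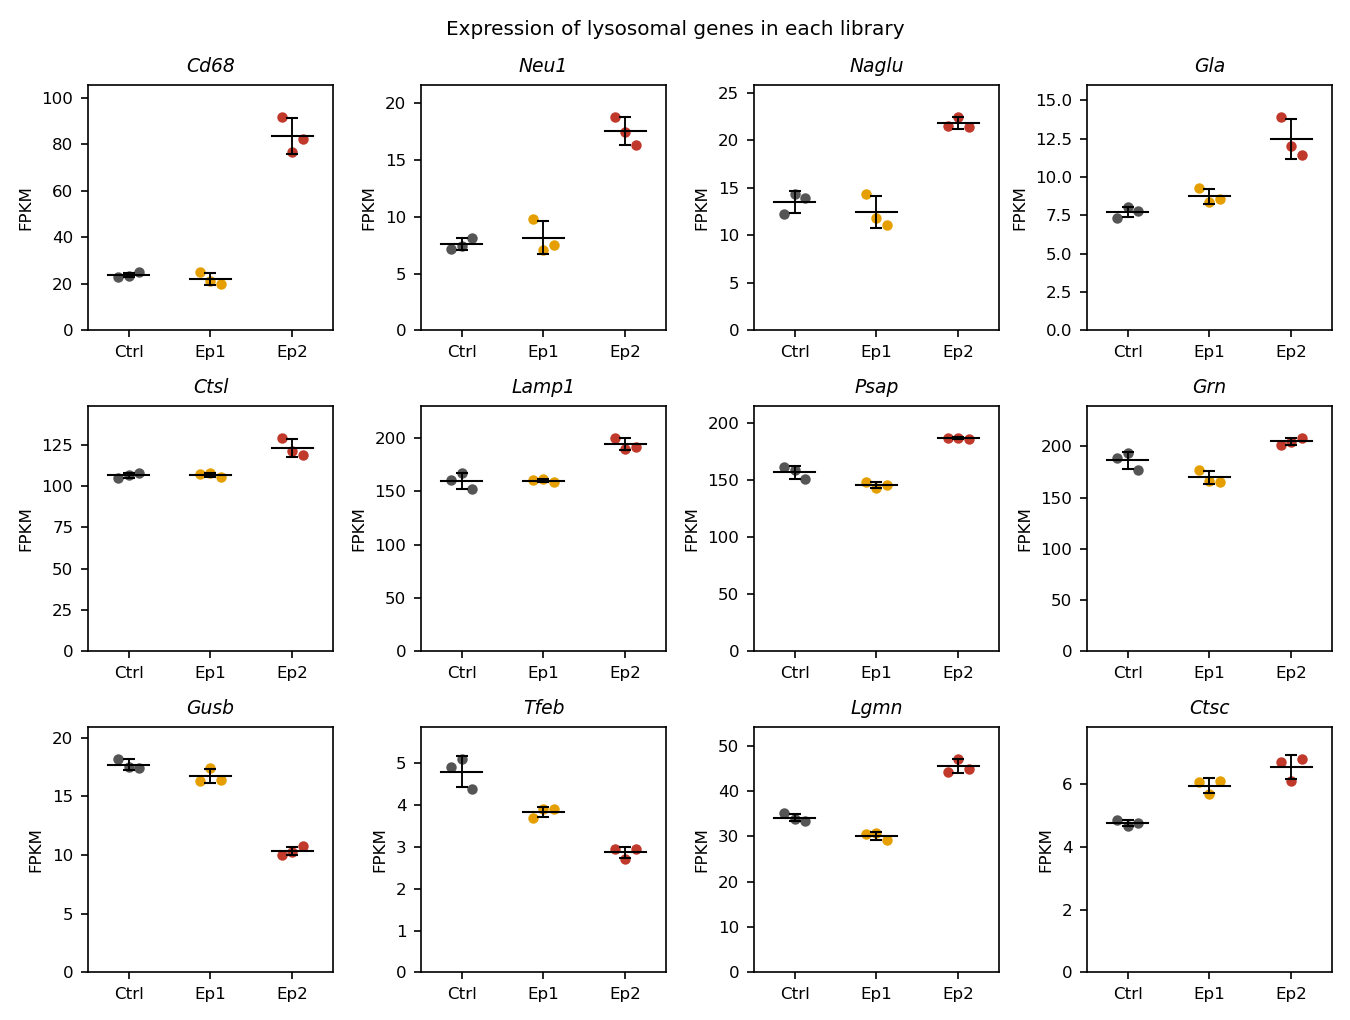
FPKM (vertical axis, from 0) of 12 members in each library of Ctrl, Ep1 and Ep2, with the group mean (long bar) and SD (n = 3). Cd68 stood at 76.6 to 91.9 in Ep2 and at most 25.2 elsewhere, Gusb and Tfeb were lowest in Ep2, and Lgmn was lower in Ep1 and higher in Ep2 than in Ctrl.

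Of the 9 tested proteases, 7 rose in Ep2 (77.8%, against 23.9% of all tested genes). The largest change was in Ctsd, the major aspartic protease of the lysosome, which went from 117 to 121 FPKM in Ctrl to 159 to 174 in Ep2, a log2 fold change of 0.49 ± 0.056 (SE, p-adj = 9.42e-05). The cysteine cathepsins Ctsb and Ctsl, both broad endopeptidases, rose by 0.23 (p-adj = 0.000848) and 0.21 (p-adj = 0.00192), from means of 129 and 106 FPKM. The span of Ctsb overlaps that of Fdft1 on the opposite strand, and whether fragments were counted by strand is not given in the sources used here. Ctsa, a carboxypeptidase that also protects the sialidase Neu1, rose by 0.17 (p-adj = 0.0145) and overlaps Neurl2 and Pltp in the same way.

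Lgmn encodes legumain, the asparaginyl endopeptidase that processes several cathepsins, and it moved in opposite directions at the light doses. Its FPKM (ENSMUSG00000021190, chr12:102394084-102439813, minus strand) was 35.0, 33.9 and 33.5 in Ctrl, 30.5, 30.7 and 29.1 in Ep1, and 44.3, 47.1 and 44.9 in Ep2, so that the groups did not overlap. It was lower in Ep1 (-0.18 ± 0.042 (SE, p-adj = 0.0308)) and higher in Ep2 (0.40 ± 0.042 (SE, p-adj = 5.48e-05)). The fall in Ep1 lost its call without Ctrl 1, Ctrl 2, Ep1 1, Ep1 2 or Ep1 3 (p-adj = 0.0555 to 0.114) and with no filter or with a correction for gene length and GC content (p-adj = 0.063 to 0.0772). Ctsb, Ctsa, Tpp1 and Psap showed the same order of groups without overlap. None of their falls in Ep1 was called (p-adj = 0.0691 to 0.326).

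Ctsc, the dipeptidyl peptidase that activates granule serine proteases, was the only tested member called higher at the lower light dose. Its FPKM (ENSMUSG00000030560, chr7:88278085-88310888, plus strand) was 4.84, 4.67 and 4.78 in Ctrl, 6.07, 5.69 and 6.10 in Ep1, and 6.69, 6.10 and 6.81 in Ep2. Every treated library exceeded every Ctrl library, with log2 fold changes of 0.27 ± 0.054 (SE, p-adj = 0.0171) in Ep1 and 0.39 ± 0.054 (SE, p-adj = 0.000287) in Ep2. The difference between the light doses was not called (0.12 (p-adj = 0.109), 95% interval -0.0052 to 0.24), but it was with median centring (p-adj = 0.0284) and without Ep2 2 (p-adj = 0.0499). The call in Ep1 was lost without Ctrl 1, Ctrl 2, Ep1 1 or Ep1 3 (p-adj = 0.0548 to 0.0781) and with no filter or with a correction for gene length and GC content (p-adj = 0.0509 to 0.0612).

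Ctsz, a lysosomal carboxypeptidase, was the most abundant protease. Its FPKM was 162, 165 and 155 in Ctrl, 144, 142 and 134 in Ep1, and 157, 142 and 132 in Ep2. The Ep1 libraries lay below all Ctrl libraries, with a log2 fold change of -0.20 ± 0.062 (SE, p-adj = 0.067) that was not called, although it was in 6 of 17 alternatives. Ctrl and Ep2 overlapped, and the log2 fold change in Ep2 of -0.17 ± 0.062 (SE, p-adj = 0.049) lay just under the threshold and lost its call without Ctrl 1, Ctrl 2, Ctrl 3, Ep1 1, Ep1 2, Ep1 3, Ep2 2 or Ep2 3 (p-adj = 0.0545 to 0.148) and in 4 other alternatives (p-adj = 0.0788 to 0.927). Tpp1, the tripeptidyl peptidase lost in late infantile Batten disease, rose by 0.18 (p-adj = 0.0283), from a mean of 19.8 to 22.6 FPKM, and was not called without Ctrl 2, Ctrl 3 or Ep2 3 (p-adj = 0.071 to 0.0814) and with no filter or with only the groups compared (p-adj = 0.0613 to 0.0703). Ctso, a low-level cysteine protease, was not called (0.10 (p-adj = 0.245)).

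Of the 14 glycosidases and sulfatases, 6 were higher in Ep2 (42.9%, against 23.9% of all tested genes) and 3 lower (21.4%, against 29.3%). The other 5 were not called, and the median log2 fold change of the role was 0.16. Neu1, the lysosomal sialidase (ENSMUSG00000007038, chr17:34931253-34935953, plus strand), had FPKM of 7.13, 7.42 and 8.15 in Ctrl, 9.78, 7.09 and 7.52 in Ep1, and 18.8, 17.5 and 16.3 in Ep2. Ctrl and Ep1 overlapped and all Ep2 libraries were higher, at 2.32 times the Ctrl mean. The log2 fold change was 1.11 ± 0.10 (SE, p-adj = 3.14e-05) against Ctrl and 1.03 ± 0.10 (SE, p-adj = 7.43e-05) against Ep1. Neu1 works in a complex with Ctsa and the β-galactosidase Glb1. Beside the rise of Neu1, Ctsa rose by 0.17 and Glb1 was not called (0.15 (p-adj = 0.0993)), except with median centring or with a correction for gene length and GC content (p-adj = 0.0181 to 0.0395) and without Ep2 1 (p-adj = 0.008). Against Ep1, Glb1 was higher (0.23 (p-adj = 0.0261)). Glb1 shares 6172 bases of its span with Tmppe on the same strand.

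Naglu and Gla were the other DEGs that rose in this role. Naglu, the α-N-acetylglucosaminidase of heparan sulfate degradation (ENSMUSG00000001751, chr11:101070012-101077672, plus strand), had FPKM of 12.2, 14.4 and 14.0 in Ctrl, 14.3, 11.9 and 11.1 in Ep1, and 21.5, 22.5 and 21.5 in Ep2. The Ep2 libraries lay above all others, and the log2 fold change was 0.65 ± 0.089 (SE, p-adj = 0.00025). Gla, the α-galactosidase A deficient in Fabry disease (ENSMUSG00000031266, chrX:134588149-134601125, minus strand), had FPKM of 7.35, 8.02 and 7.79 in Ctrl, 9.31, 8.34 and 8.56 in Ep1, and 13.9, 12.0 and 11.4 in Ep2. Its Ep1 libraries lay above Ctrl without a call (0.16 (p-adj = 0.184)), and its Ep2 libraries lay above both groups (0.62 ± 0.073 (SE, p-adj = 0.000112)).

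Gusb was the only member that was a DEG and fell. It encodes β-glucuronidase, which removes glucuronic acid from glycosaminoglycans (ENSMUSG00000025534, chr5:129989011-130003049, minus strand), and its FPKM was 18.2, 17.5 and 17.4 in Ctrl, 16.3, 17.4 and 16.4 in Ep1, and 10.0, 10.3 and 10.7 in Ep2. Ctrl and Ep1 touched at 17.4 FPKM, and the Ep2 libraries were well below both, at 0.584 times the Ctrl mean. The log2 fold change was -0.72 ± 0.045 (SE, p-adj = 5.26e-06) against Ctrl and -0.64 ± 0.045 (SE, p-adj = 1.2e-05) against Ep1, opposite to Naglu and Idua, which act on the same glycosaminoglycans.

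Enzymes of heparan sulfate degradation were thus called in both directions. Idua, the α-L-iduronidase, rose by 0.29 (p-adj = 0.0109) at 1.34 to 2.28 FPKM, but 9342 bases of its span overlap Dgkq on the opposite strand. Ids, the iduronate 2-sulfatase, was not called (0.20 (p-adj = 0.0583)), except with median centring or by voom (p-adj = 0.0246 to 0.0415) and without Ctrl 1 or Ep2 1 (p-adj = 0.0121 to 0.0333). Sgsh, the sulfamidase, was lower (-0.21 (p-adj = 0.0462)) and lost that call without Ctrl 1, Ctrl 2, Ep1 1, Ep1 2, Ep1 3, Ep2 1 or Ep2 2 (p-adj = 0.0622 to 0.152) and in 5 other alternatives (p-adj = 0.0797 to 0.434). Galns, the sulfatase of keratan sulfate, was not called, with an interval of -0.15 to 0.24.

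Hexa, the α subunit of β-hexosaminidase, rose from 29.2 to 29.8 FPKM in Ctrl to 39.7 to 42.2 in Ep2, a log2 fold change of 0.47 ± 0.04 (SE, p-adj = 1.95e-05).

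Gaa, the acid α-glucosidase that breaks down glycogen, was the most abundant gene of this role. Its FPKM was 59.9, 60.9 and 56.6 in Ctrl, 57.6, 54.5 and 55.0 in Ep1, and 67.6, 65.2 and 66.7 in Ep2, with all Ep2 libraries above the others and a log2 fold change of 0.17 ± 0.042 (SE, p-adj = 0.00778). None of the exoglycosidases Manba, Man2b1 and Fuca1, which trim the N-glycans of glycoproteins, was called higher. Manba, the β-mannosidase, had FPKM of 5.95, 5.93 and 5.98 in Ctrl, 5.21, 5.05 and 5.06 in Ep1, and 4.72, 5.34 and 5.79 in Ep2. Its treated libraries were all below Ctrl, and it was not called in Ep1 (-0.19 (p-adj = 0.0855)) or Ep2 (-0.15 (p-adj = 0.0716)). It was called lower in Ep1 with only the groups compared or with a correction for gene length and GC content (p-adj = 0.0238 to 0.0251) and without Ep2 1 or Ep2 3 (p-adj = 0.0243 to 0.0492), and in Ep2 by voom or with a correction for gene length and GC content (p-adj = 0.00883 to 0.0481) and without Ep2 3 (p-adj = 0.0179). Man2b1, the α-mannosidase, fell by a little (-0.17 (p-adj = 0.014)), a call that was lost without Ctrl 2 (p-adj = 0.0572) and with median centring (p-adj = 0.0519). Fuca1, the α-fucosidase, was not called, with an interval of -0.033 to 0.21, except with a correction for gene length and GC content (p-adj = 0.0191) and without Ep2 1 (p-adj = 0.041).

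All 8 genes of lipid degradation were tested and all rose in Ep2, where 23.9% of all tested genes did. Their log2 fold changes spanned a narrow range from 0.25 to 0.38. Psap, the precursor of the saposins that present sphingolipids to their hydrolases, was the most abundant. Its FPKM was 161, 158 and 151 in Ctrl, 148, 143 and 146 in Ep1, and 187, 187 and 186 in Ep2. The Ep1 libraries lay below Ctrl without a call (-0.10 (p-adj = 0.0945)), and the Ep2 libraries lay above it and within 186 to 187, with a log2 fold change of 0.25 ± 0.037 (SE, p-adj = 0.000395). The sphingolipid enzymes Smpd1 (acid sphingomyelinase) and Asah1 (acid ceramidase) rose by 0.38 (p-adj = 0.000879) and 0.38 (p-adj = 0.00347). Lipa, the acid lipase of cholesteryl esters, rose by 0.38 (p-adj = 0.00272).

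The smaller rises of this role were those of Ppt1, the palmitoyl-protein thioesterase (0.30 (p-adj = 0.00108)), Gm2a, the activator protein that presents GM2 ganglioside to β-hexosaminidase (0.28 (p-adj = 0.00352)), and Npc2, the soluble cholesterol carrier that hands cholesterol to NPC1 (0.26 (p-adj = 0.000553)). Galc, the galactosylceramidase, was the weakest call (0.25 (p-adj = 0.0198)) at 1.32 to 2.02 FPKM. It was lost without Ctrl 2, Ctrl 3 or Ep2 2 (p-adj = 0.0593 to 0.072) and with a correction for gene length and GC content (p-adj = 0.366). None of the 8 was called in Ep1, where only 6.32% of all tested genes were higher and 4.97% lower.

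Grn, which encodes progranulin, a secreted and lysosomal growth factor, had the highest mean FPKM of all members. Its FPKM was 189, 194 and 177 in Ctrl, 177, 167 and 166 in Ep1, and 202, 205 and 209 in Ep2. Ep2 exceeded the other groups and the log2 fold change was 0.14 ± 0.045 (SE, p-adj = 0.0275). This call was lost without Ctrl 1, Ctrl 3, Ep2 2 or Ep2 3 (p-adj = 0.0528 to 0.0946) and with no filter (p-adj = 0.059).

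Tfeb, the transcription factor of the CLEAR element, was lower with each light dose. Its FPKM (ENSMUSG00000023990, chr17:47737030-47792419, plus strand) was 4.89, 5.10 and 4.38 in Ctrl, 3.69, 3.89 and 3.90 in Ep1, and 2.94, 2.71 and 2.94 in Ep2, and the 3 groups did not overlap. The log2 fold change was -0.26 ± 0.062 (SE, p-adj = 0.0308) in Ep1 and -0.58 ± 0.062 (SE, p-adj = 6.37e-05) in Ep2, and Ep2 was lower than Ep1 (-0.32 ± 0.062 (SE, p-adj = 0.00269)). The call in Ep1 was lost without Ctrl 1, Ctrl 2, Ep1 1, Ep1 2 or Ep1 3 (p-adj = 0.0641 to 0.126) and in 3 other alternatives (p-adj = 0.0577 to 0.103), while both calls of Ep2 were kept in each of the 16 alternatives in which Tfeb was tested. FPKM measures the mRNA, and the protein and its place in the cell were not measured.

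Of the other MiT/TFE factors, Mitf and Tfe3 were higher in Ep2, and they are named here after their values were seen. Mitf had FPKM of 2.34, 1.93 and 2.18 in Ctrl, 3.16, 2.88 and 3.05 in Ep1, and 4.60, 4.42 and 4.67 in Ep2. Its groups did not overlap, and it rose in Ep1 (0.36 ± 0.064 (SE, p-adj = 0.0125)) and in Ep2 (0.82 ± 0.064 (SE, p-adj = 1.24e-05)), although the call in Ep1 was lost without Ctrl 2, Ep1 1 or Ep1 3 (p-adj = 0.0511 to 0.0582). Tfe3 had FPKM of 8.31, 8.05 and 8.11 in Ctrl, 9.03, 8.16 and 9.07 in Ep1, and 10.7, 10.5 and 10.3 in Ep2 and rose in Ep2 by 0.33 ± 0.05 (SE, p-adj = 0.000484), with no call in Ep1 (0.09 (p-adj = 0.262)). Tfec, the remaining factor of the family, was under the filter.

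Of 15 tested genes of the MiT/TFE and mTORC1 list, 9 were higher (60%, against 23.9% of all tested genes) and 4 lower (26.7%, against 29.3%) in Ep2, with a median of 0.30. Fnip1, the partner of folliculin at the lysosome, rose most. Its FPKM was 7.63, 6.87 and 7.52 in Ctrl, 11.3, 10.5 and 11.1 in Ep1, and 14.6, 15.9 and 17.1 in Ep2, with no overlap between the groups, and its log2 fold changes were 0.52 ± 0.063 (SE, p-adj = 0.00538) in Ep1 and 1.01 ± 0.063 (SE, p-adj = 5.2e-06) in Ep2. Its paralog Fnip2 rose by 0.56 (p-adj = 0.000254) in Ep2, and Rragc and Rragd, the GTPases that folliculin acts on, rose by 0.60 (p-adj = 8.89e-05) and 0.55 (p-adj = 0.00141). Flcn itself rose by 0.26 (p-adj = 0.0289), a call that was lost without Ctrl 2, Ctrl 3, Ep2 2 or Ep2 3 (p-adj = 0.0721 to 0.102) and in 3 other alternatives (p-adj = 0.0559 to 0.0807). The genes of the scaffold that anchors the Rag GTPases were divided, since Lamtor3 rose (0.56 (p-adj = 4.55e-05)), Lamtor1, Lamtor2 and Lamtor4 fell and Lamtor5 was not called. Mtor itself fell too. Of the genes that fell, Lamtor2 had the smallest adjusted p (-0.29 (p-adj = 0.00476)).

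**Figure D4:**
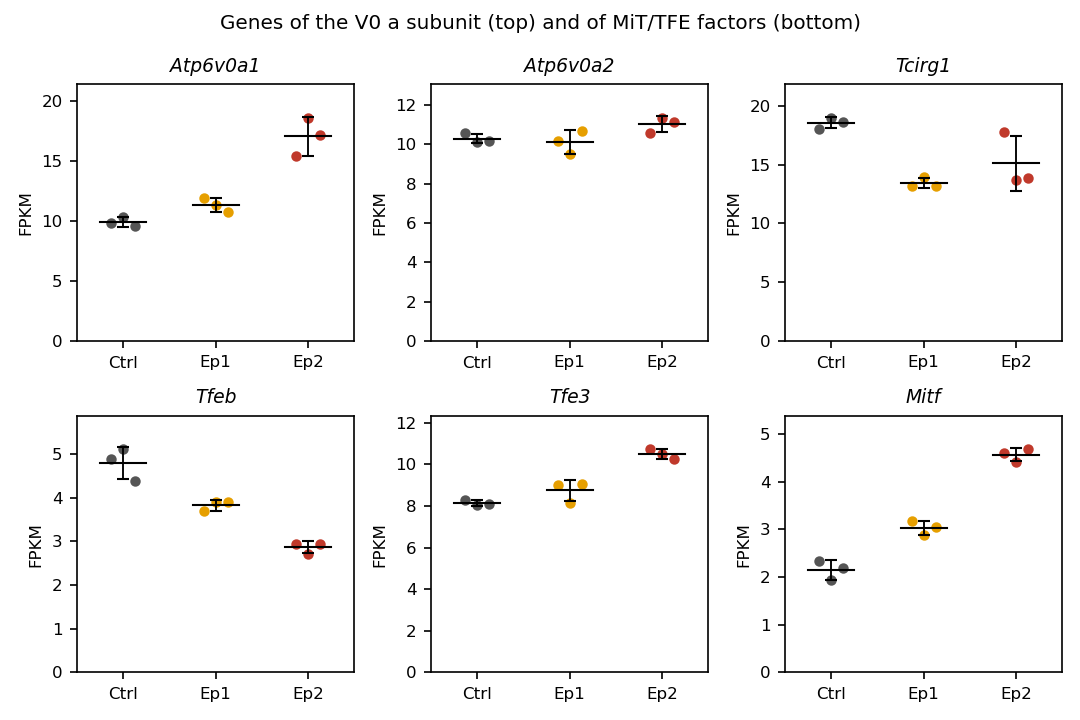
FPKM (vertical axis, from 0) in each library of Ctrl, Ep1 and Ep2, with the group mean (long bar) and SD (n = 3), for genes of the V0 a subunit (Atp6v0a1, Atp6v0a2, Tcirg1) and of the MiT/TFE factors (Tfeb, Tfe3, Mitf). Tfeb fell from 4.79 to 2.86 while Mitf rose from 2.15 to 4.56, and Atp6v0a1 rose while Tcirg1 was lower in both treated groups.

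The V-ATPase consists of a membrane sector, V0, through which protons pass, and a cytosolic sector, V1, which hydrolyses ATP. Of the tested genes, 4 of 7 V0 genes (57.1%) and 7 of 8 V1 genes (87.5%) rose in Ep2 and none fell. Over all tested genes, 23.9% were higher and 29.3% lower. These counts cover the genes named Atp6v and leave out Tcirg1, a V0 gene that was lower and is described below. The medians were 0.43 in V0 and 0.45 in V1. The summed FPKM of the 15 genes was 388 to 406 in Ctrl, 378 to 402 in Ep1 and 498 to 569 in Ep2. Every Ep2 library was above every other library by this sum, and Ctrl and Ep1 overlapped. None of these 15 genes was called in Ep1, where only 6.32% of all tested genes were higher and 4.97% lower.

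In V0, 3 genes were DEGs. Atp6v0a1 (ENSMUSG00000019302, chr11:101009452-101063719, plus strand), one of several genes for the large a subunit, had FPKM of 9.88, 10.3 and 9.55 in Ctrl, 11.9, 11.3 and 10.7 in Ep1, and 15.4, 18.6 and 17.2 in Ep2. Its groups did not overlap, with a log2 fold change of 0.17 (p-adj = 0.132) in Ep1 and 0.72 ± 0.069 (SE, p-adj = 3.45e-05) in Ep2. Atp6v0b (ENSMUSG00000033379, chr4:117884326-117887333, minus strand), which encodes the c″ proteolipid of the rotor ring, had FPKM of 31.7, 35.7 and 35.3 in Ctrl, 32.7, 30.9 and 34.3 in Ep1, and 70.5, 52.5 and 49.2 in Ep2. Its log2 fold change was 0.71 ± 0.12 (SE, p-adj = 0.00107), with the widest error of the V-ATPase DEGs, since the first Ep2 library stood at 70.5 and the others at 52.5 and 49.2.

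Atp6v0d1 (ENSMUSG00000013160, chr8:105524465-105566047, minus strand), the d subunit that couples the rotor to V1, had FPKM of 28.6, 27.4 and 27.3 in Ctrl, 28.3, 24.6 and 25.2 in Ep1, and 47.7, 42.1 and 44.3 in Ep2. The Ep2 libraries stood apart from the other 6, with 0.67 ± 0.062 (SE, p-adj = 3.19e-05) against Ctrl. Atp6v0c, the main proteolipid of the ring, rose by 0.43 (p-adj = 0.000359). Its processed copies Atp6v0c-ps1 and Atp6v0c-ps2 may take or give reads of near-identical sequence, so its level is uncertain to that extent. Atp6v0c-ps2 was tested with FPKM of 2.68, 2.42 and 6.37 in Ctrl, 2.21, 2.18 and 2.32 in Ep1, and 2.48, 2.99 and 3.24 in Ep2, where the third Ctrl library stood apart, and was not called (-0.22 (p-adj = 0.511), or 0.13 without that library). Atp6v0e and Atp6v0a2 were not called (0.12 (p-adj = 0.0528) and 0.092 (p-adj = 0.165)). Atp6v0e was called higher in 3 other alternatives (p-adj = 0.0138 to 0.049), and Atp6v0a2 with median centring (p-adj = 0.0461).

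In V1, Atp6v1e1, Atp6v1b2 and Atp6v1d were DEGs. Atp6v1e1 (ENSMUSG00000019210, chr6:120794305-120822793, minus strand), of the peripheral stalk, had FPKM of 18.8, 19.0 and 19.5 in Ctrl, 20.3, 19.2 and 19.1 in Ep1, and 32.6, 29.6 and 29.2 in Ep2, with all Ep2 libraries above the other 6, and rose by 0.65 ± 0.05 (SE, p-adj = 1.24e-05). Atp6v1b2 (ENSMUSG00000006273, chr8:69088646-69113711, plus strand), the B subunit of the ATP-binding head, had FPKM of 19.3, 19.7 and 18.6 in Ctrl, 22.7, 19.6 and 20.0 in Ep1, and 32.7, 29.1 and 30.1 in Ep2 and rose by 0.65 ± 0.063 (SE, p-adj = 3.84e-05). Atp6v1d (ENSMUSG00000021114, chr12:78840725-78861638, minus strand), of the central shaft, had FPKM of 8.49, 8.94 and 9.01 in Ctrl, 9.44, 8.91 and 9.05 in Ep1, and 15.7, 13.4 and 13.1 in Ep2 and rose by 0.62 ± 0.066 (SE, p-adj = 6.68e-05). In both genes the Ep2 libraries did not overlap with those of Ctrl or Ep1.

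The remaining V1 genes rose by less. Atp6v1c1, which bridges head and stalk, rose by 0.49 (p-adj = 2.54e-05), Atp6v1a, the catalytic A subunit, by 0.40 (p-adj = 0.000578), and Atp6v1h, the regulatory H subunit, by 0.40 (p-adj = 0.000515). Atp6v1g1, a stalk subunit, was the most abundant V-ATPase gene with FPKM of 88.4, 86.0 and 97.0 in Ctrl, 91.5, 83.6 and 90.7 in Ep1, and 118, 113 and 100.4 in Ep2. Its Ep2 libraries were the highest and its log2 fold change was 0.28 ± 0.07 (SE, p-adj = 0.00713).

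Atp6v1f, of the shaft, was the only V1 gene that was not called in Ep2 against Ctrl. Its FPKM was 56.8, 63.9 and 60.4 in Ctrl, 53.9, 52.7 and 47.4 in Ep1, and 69.8, 62.9 and 53.4 in Ep2. The Ep2 libraries overlapped with Ctrl, and the log2 fold change was 0.031 ± 0.093 (SE, p-adj = 0.801) with a 95% interval of -0.18 to 0.24. The Ep1 libraries lay below Ctrl without a call (-0.23 (p-adj = 0.135)), except with only the groups compared (p-adj = 0.0405), and Ep2 was called higher than Ep1 (0.26 (p-adj = 0.0456)). That call was lost without Ctrl 1, Ctrl 2, Ctrl 3, Ep1 1, Ep1 2, Ep1 3, Ep2 1 or Ep2 2 (p-adj = 0.0541 to 0.146) and with no filter or with only the groups compared (p-adj = 0.074 to 0.117).

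**Figure D5:**
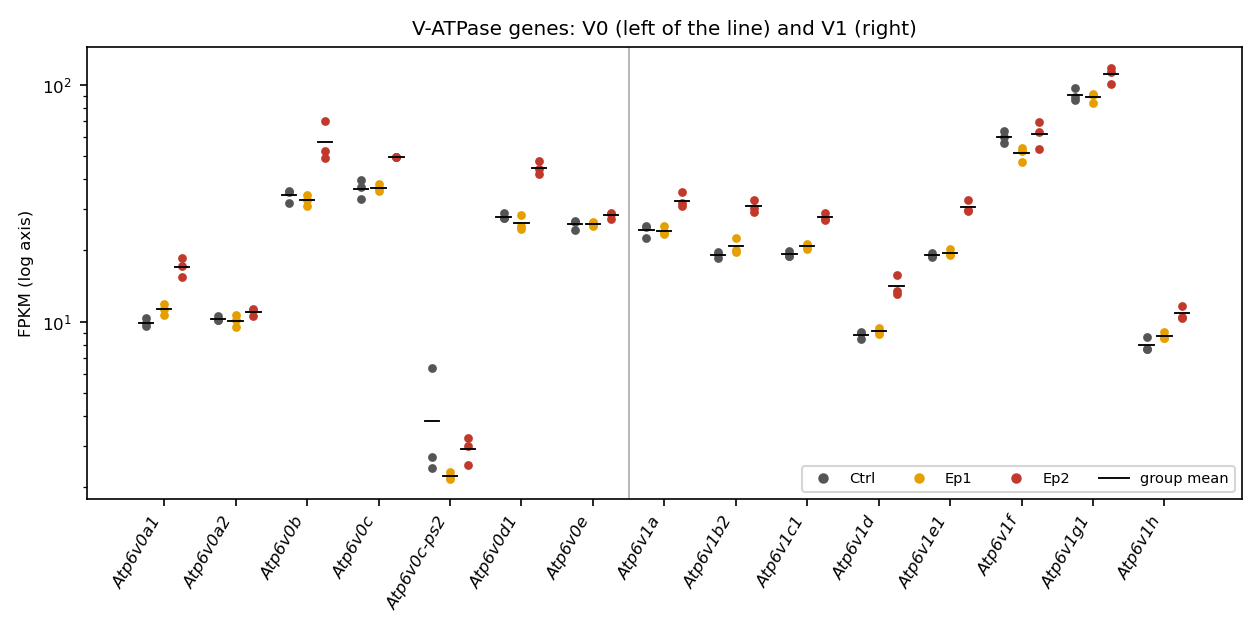
FPKM (vertical log axis) of the 15 tested V-ATPase genes in each library (points) with group means (bars), V0 to the left and V1 to the right of the line. The Ep2 points (red) lie above those of Ctrl and Ep1 in most genes, whereas Atp6v0a2, Atp6v0e and Atp6v1f lie close together in all groups and 1 Ctrl library stands apart for Atp6v0c-ps2.

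Where a subunit has several genes, 1 gene carried nearly all of its FPKM, except in the a subunit. Atp6v0d1, Atp6v0e, Atp6v1b2, Atp6v1c1, Atp6v1e1 and Atp6v1g1 each held at least 98.7% of the FPKM of their subunit in every library. The tissue-restricted paralogs Atp6v0d2 (osteoclasts), Atp6v1b1 (kidney), Atp6v1e2 (testis) and Atp6v1g3 (kidney) had at most 3 fragments in any library.

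The a subunit was divided between Atp6v0a1, Atp6v0a2 and Tcirg1, which encodes a3, an isoform of lysosomes and of the osteoclast surface. In Ctrl, Tcirg1 held 47.2% ± 0.83 (SD, n = 3) of the summed FPKM of the a genes, Atp6v0a2 26.2% ± 0.88 and Atp6v0a1 25.3% ± 0.65. In Ep1, these shares were 38.1% ± 1.41, 28.6% ± 1.77 and 32.0% ± 1.39. In Ep2, they were 34.4% ± 5.08, 25.2% ± 1.07 and 38.9% ± 3.69, so that Atp6v0a1 held the largest mean share. In the first Ep2 library, however, Tcirg1 still held the largest share, at 40.3% against 34.8% for Atp6v0a1. The share of Atp6v0a1 did not overlap between the 3 groups (24.6% to 25.8%, 30.6% to 33.3% and 34.8% to 41.9%). Atp6v0a4, the isoform of kidney and inner ear, was under the filter and held at most 1.72% in any library.

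Tcirg1 is not named Atp6v and was therefore no member. Its FPKM was 18.0, 19.0 and 18.6 in Ctrl, 13.2, 14.0 and 13.2 in Ep1, and 17.8, 13.7 and 13.9 in Ep2. All treated libraries were below Ctrl, with log2 fold changes of -0.44 ± 0.087 (SE, p-adj = 0.0172) in Ep1 and -0.29 ± 0.087 (SE, p-adj = 0.0189) in Ep2, and the first Ep2 library was close to Ctrl. The call in Ep1 was lost without Ctrl 1, Ctrl 2, Ep1 1 or Ep1 3 (p-adj = 0.0526 to 0.076) and with no filter (p-adj = 0.061), and the call in Ep2 was lost without Ctrl 2, Ep2 2 or Ep2 3 (p-adj = 0.0582 to 0.0696) and with no filter or with a correction for gene length and GC content (p-adj = 0.0557 to 0.15).

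The list of other V-ATPase genes, which holds Tcirg1 with the assembly and accessory genes, had 4 of 10 higher (40%, against 23.9% of all tested genes) and 3 lower (30%, against 29.3%) in Ep2, with a median of 0.013. The genes that rose were Atp6ap1, Atp6ap2, Vma21 and Dmxl1, and those that fell were Tcirg1, Tmem9 and Rogdi. Atp6ap2, the (pro)renin receptor, had the smallest adjusted p. Its FPKM was 35.2, 36.1 and 38.5 in Ctrl, 43.2, 42.4 and 42.1 in Ep1, and 58.4, 53.5 and 53.9 in Ep2, with no overlap between the groups, and it was higher in Ep1 (0.21 (p-adj = 0.0274)) and in Ep2 (0.58 ± 0.048 (SE, p-adj = 1.77e-05)). Rogdi, of the complex that reassembles V0 and V1, was lower (-0.38 (p-adj = 0.0183)) at 1.19 to 2.33 FPKM, a call that was lost without Ctrl 2 or Ep2 2 (p-adj = 0.0529 to 0.0723) and with a correction for gene length and GC content (p-adj = 0.129).

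Other lysosomal genes, not members, were counted for comparison. Over all 75 tested genes of the 7 further lists, 30 were higher (40%, against 23.9% of all tested genes) and 20 lower (26.7%, against 29.3%) in Ep2, with a median of 0.031. In Ep1, 5 were higher (6.67%, against 6.32%) and 4 lower (5.33%, against 4.97%), shares close to those of all tested genes. The genes of small counts in the next sentences are named after their values were seen, apart from those with the smallest adjusted p. Of 18 other hydrolases, 5 were higher (27.8%) and 4 lower (22.2%), with a median of -0.055. Scpep1 and Cpq were among those that rose, and those that fell were Hyal2, Arsb, Pla2g15 and Plbd2. Hyal2, a membrane-anchored hyaluronidase, fell from 13.9 to 7.80 FPKM (-0.77 (p-adj = 5.56e-05)). Of 17 other lysosomal membrane proteins, 9 were higher (52.9%) and 4 lower (23.5%), with a median of 0.23. Lmbrd1, of lysosomal cobalamin export, had the smallest adjusted p among those that rose (0.52 (p-adj = 5.05e-05)), and Spns1, a lysosomal lysophospholipid transporter, among those that fell (-0.28 (p-adj = 0.00326)), beside Abca2, Atp13a2 and Tmem175. The call of Spns1 was lost with a correction for gene length and GC content (p-adj = 0.0584).

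Among the genes that sort hydrolases to the lysosome, more were lower than higher in Ep2. Of 10 tested sorting genes, 1 was higher (10%, against 23.9% of all tested genes) and 5 were lower (50%, against 29.3%), with a median of -0.20. Vps35, of the retromer that retrieves sorting receptors, was the gene that rose (0.29 (p-adj = 0.00262)), which it did not with a correction for gene length and GC content (p-adj = 0.102). Nagpa, the uncovering enzyme that exposes the mannose 6-phosphate tag, had the lowest log2 fold change of the list (-0.87 (p-adj = 5.83e-05)), going from 10.2 to 12.8 FPKM in Ctrl to 4.98 to 6.35 in Ep2. The others that fell were the adaptor genes Ap1m1, Gga1, Gga2 and Gga3, which load receptors into vesicles. The cystatins Cstb and Cst3, which inhibit cysteine cathepsins, were not called in Ep2 (0.10 (p-adj = 0.165) and -0.093 (p-adj = 0.114)), apart from a rise of Cstb with a correction for gene length and GC content (p-adj = 0.0362). Of 3 galectins that bind to the glycans of ruptured lysosomes, 2 were higher (66.7%, against 23.9% of all tested genes). Lgals3 rose from 203 to 300.4 FPKM (0.56 (p-adj = 0.000297)), Lgals8 rose as well (0.54 (p-adj = 0.00167)), and Lgals9 was not called (-0.036 (p-adj = 0.657)).

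The 14 members under the filter were low or at 0 in all groups. Ctsf and Ctsh, of the cysteine cathepsins, and the pseudogene Atp6v0c-ps1 had no fragment in any library, where an absent count still leaves room for up to 3 fragments by counting error alone. Ctss, the cathepsin of antigen-presenting cells, had at most 2 fragments in a library. Atp6v0a4 and Atp6v1g2 reached 0.763 and 1.12 FPKM, and Atp6v1c2 and Atp6v1fnb at most 0.223 and 0.265. Atp6v0d2, Atp6v0e2, Atp6v1b1, Atp6v1e2 and Atp6v1g3 had at most 3 fragments in any library.

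Ctsk, the collagen-degrading cathepsin of osteoclasts, was the exception among them. It was counted with 2, 3 and 2 fragments in Ctrl, 17, 7 and 13 in Ep1, and 8, 12 and 7 in Ep2. All treated libraries held more fragments than all Ctrl libraries, at no more than 0.609 FPKM. In the alternative on the recovered fragments of 14112 genes, the limit was at least 10 fragments in at least 3 libraries. Ctsk met it only through treated libraries, with 17 and 13 fragments in Ep1 and 12 in Ep2. Voom and limma gave adjusted p-values of 0.00617 for Ep1 and 0.00625 for Ep2 against Ctrl. Since Ctsk was admitted through the groups where it was high, these p-values are no support for a rise.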

How the data were processed

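Total RNA of 9 b.End3 libraries was sequenced in read pairs. The authors deposited 1 FPKM value per gene and library, that is, fragments normalized by gene length and library size, in a joint table and in single tables whose values were equal. The aligner and counter behind the FPKM values, and whether strand was used, are not clear from the sources used here: the submitters' processing notes name Bowtie 0.12.2 and mm8 and the methods name GRCm39, while 99.9% of 37620 listed coordinates compared overlapped the gene on GRCm38, so positions are given on that build. No member shares its name with another listed gene.

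The groups follow the titles of the libraries. Multiplied by gene length, the FPKM values of a library fell on whole multiples of a single step (100% of values within 0.05), so fragments per gene could be recovered, with library totals of 16240688 to 19509225. The upper limit for a gene without fragments is 3 fragments, which covers counting error only. The 11727 genes that reached 1 FPKM in 3 or more libraries were fitted as log2(FPKM + 1) in limma, without covariates and over all 9 libraries (lmFit, then eBayes with trend = TRUE and robust = TRUE), with two-sided moderated tests and Benjamini-Hochberg adjustment over all tested genes within each comparison. Lists are described by counts and medians, without a set test.

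The members and lists were chosen with earlier results of these data known. Values in every library are given for members that were a DEG in any comparison, for those with the smallest adjusted p or the highest mean in each role, and for Tfeb. From each further list, the gene with the smallest adjusted p in each direction is named, and other names are marked. Some genes of the list of other hydrolases are counted and not reported by name here. Alternatives were median centring, no filter, an FPKM minimum of 5, 0.1 as pseudocount, the replicate number as a block, separate fits for each pair of groups, voom on recovered fragments (at least 10 in at least 3 libraries, 14112 genes, of which 3389 were higher and 3670 lower in Ep2 than in Ctrl), no pseudogenes, the omission of each library, and, added after the data were seen, a correction for gene length and transcript GC content (11600 genes). The procedure was tested on simulated data. Promoter windows are from RefSeq, and those of 13 members were not given. The software was Python 3.11.15, numpy 2.4.6, pandas 2.3.3, matplotlib 3.10.9, R 4.3.3 and limma 3.58.1.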

Additional observations from a re-analysis of the deposited data

Results flagged for a closer look

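Lgmn, which encodes legumain, was singled out because its change differed between the light doses. It was not alone in this order. Ctsb, Ctsa, Tpp1 and Psap also had all Ep1 libraries below and all Ep2 libraries above Ctrl, without a call in Ep1. Lgmn was lower in Ep1 (-0.18 ± 0.042 (SE, p-adj = 0.0308)) and higher in Ep2 (0.40 ± 0.042 (SE, p-adj = 5.48e-05)) than in Ctrl. Ep2 against Ep1 in the limma fit gave 0.58 ± 0.042 (SE, p-adj = 1.38e-05). Lgmn was picked for this same difference, so that p-value is no separate support for it. Of the 56 tested members, 38 were called higher in Ep2 than in Ep1, where 18.8% of all tested genes were. For Lgmn, all 3 Ep2 libraries were above all Ctrl libraries, and all 3 Ep1 libraries were below them. The difference between the doses was called in each of the 17 alternatives, whereas the fall in Ep1 was called in 10 of 17. The alternatives reuse the same libraries, so they too are no separate support for the difference by which Lgmn was picked. Dixon's test for a single outlying library was not run.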

How the results depend on the processing

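The rise of the members in Ep2 kept its direction in each alternative. Higher in Ep2 than in Ctrl were 36 to 42 members over the other settings and 35 to 41 with 1 library left out, and against Ep1 36 to 45 and 36 to 39. The median log2 fold change in Ep2 against Ctrl, 0.27, became 0.31 with median centring, 0.23 with no filter, 0.28 with a pseudocount of 0.1, 0.29 by voom, 0.30 after correcting for the length and GC content of genes (chosen after seeing the data), and 0.25 to 0.27 with 1 library left out. Against Ep1, 0.29 became 0.34 with median centring and 0.33 with that correction. The members lower in Ep2 than in Ctrl, 5, were 2 with median centring, 3 with no filter and 3 with only the groups compared. The shares of all tested genes were then 25.3%, 11.5% and 27.2%. With 1 library left out, 2 to 5 members were lower, beside 25.6% to 30.5% of all tested genes. Those lower than in Ep1, 2, were 1 with the stricter filter (33.8% of all tested genes), which leaves out Tfeb. The Ep1 counts, 1 higher and 2 lower, moved most. They were 0 and 0 with no filter, where 0.906% and 0.576% of all tested genes were. With only the groups compared they were 1 and 5 (9.83% and 8.60% of all tested genes), and by voom 2 and 5 (7.63% and 5.98%). After the correction they were 0 and 1 (4.91% and 3.31%). With 1 library left out they ranged from 0 to 1 and from 0 to 6. The shares of all tested genes then ranged from 0.986% to 10.2% and from 0.66% to 8.69%. The median in Ep1 was -0.0022 with no filter. The cause of these differences was not tested.

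The values that changed sign belonged to genes not called in the comparison concerned. In Ep1, the correction gave 0.019 for Atp6v0b, -0.030 for Atp6v1d and 0.0015 for Gaa, and median centring gave -0.0060 for Lamp1. With 1 library left out, Lamp1 ranged from -0.032 to 0.034, Atp6v1g1 from -0.064 to 0.022 and Neu1 from -0.044 to 0.16. In Ep2 against Ctrl, Cd63 was 0.047 with median centring, 0.0020 with voom and 0.16 with the correction, the only one of these values that was called, Lgals9 was 0.011 with median centring and 0.082 with the correction, and Cst3 was 0.068 and Ctso -0.013 with the correction. With 1 library left out, Cd63 ranged from -0.013 to 0.015, Galns from -0.016 to 0.11, Lgals9 from -0.089 to 0.013, Atp6v1f from -0.057 to 0.13 and Atp6v0c-ps2 from -0.42 to 0.13, and in Ep2 against Ep1, Ctsz ranged from -0.030 to 0.094 and Manba from -0.021 to 0.10. Of 61 named genes called in Ep2 against Ctrl, 23 of 481 values in other settings and 35 of 549 with 1 library left out lost the call.

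The libraries share replicate numbers across groups, but deviations of same-numbered libraries from their group means correlated by only -0.056 to 0.074, so the numbers were not taken as pairs. With the replicate block, 38 members were higher and 4 lower in Ep2 than in Ctrl, and 1 higher and 2 lower in Ep1, where Tfeb lost its call and Ctsz gained one. Genes under 1 FPKM rest on few fragments at this depth, and members under the filter were not tested.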
